A study of Mus musculus with 18 samples.

Results

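The comparison described here is that of S2 with S1, the step at which erythroblasts of the mouse fetal liver first show the Ter119 antigen. Its members were chosen by label: the 3 S2 libraries and the 3 S1 libraries of nascent RNA, 6 of the 18 libraries in the series, with all genes of the count table. Fetal livers came from C57BL/6 embryos at e12.5-e13.5 of gestation. Cells of both populations were lineage-negative (Lin-, without the lineage markers CD41, CD45R, CD3e, CD11b and Ly-6G/6C) and CD71 high. S1 cells were Ter119-, and S2 cells were Ter119 medium. The later population S3 was CD71 high and Ter119 high, and the earlier S0-Medium was CD71 medium and Ter119-. No genotype or drug separated the populations. After the sort all cells rested for 6 h in erythroid medium and were then given 500 µM 4-thiouridine (4sU) for 45 min, so that RNA made in that time could be purified and sequenced. The study's methods enriched progenitors by magnetic depletion with an anti-Ter119 antibody before the sort. Whether the S2 cells came through that depletion, and how many embryos stood behind a library, is not given in the sources used here. The study's text calls the libraries of a population biological replicates without saying what a replicate was, and the p-values below measure the spread between them.

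Red cell precursors mature through an ordered series of divisions. The late colony-forming cell (CFU-E) carries much CD71, the transferrin receptor that brings in iron, and depends on erythropoietin and on the KIT receptor. As it becomes an erythroblast it loses KIT, builds hemoglobin from globin chains and heme, and lays down the spectrin-based membrane skeleton that is anchored to membrane proteins such as band 3. The Ter119 antibody sees an antigen on the surface of the erythroid cell, so a Ter119 gate sorts by protein and not by transcript.

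The S1 libraries held 40567976, 36524708 and 27734246 counts (replicates 1 to 3) and the S2 libraries 25422188, 36531205 and 25303249. A level of 3 counts was 2.31 to 4.16 normalized counts in these 6 libraries, and this floor covers counting error only. Normalized counts are counts scaled by edgeR's TMM factors to the mean effective library size of the 15 erythroid libraries. Replicates were separate libraries: within a population, pairs differed by a chi-square of 84.4 to 487 per degree of freedom over genes. Globin genes took 0.0385%, 0.0457% and 0.142% of the counts in S1 and 0.142%, 0.190% and 0.236% in S2, and mitochondrially encoded genes took 6.03% to 6.95% and 4.48% to 7.34%.

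Replicate 3 stood apart in both populations. Principal components were computed for these 6 libraries over 10242 genes whose mean reached 100 normalized counts in S1 or S2. The first component held 68.8% of the variance. S1 replicates 1 and 2 lay at -56.6 and -52.8 on it and S2 replicates 1 and 2 at -39.9 and -23.3. S1 replicate 3, at 20.6, lay beyond both of these S2 libraries, and S2 replicate 3 lay at 152. The sign of the component was set so that the mean of S2 is positive. With that sign, the S2 library lay higher than the S1 library within each same-numbered pair, while the populations overlapped. What the component stands for was not tested. Counts for the gene lists are given below also without replicate 3 of every population, an alternative chosen after this was seen.

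**Figure D1:**
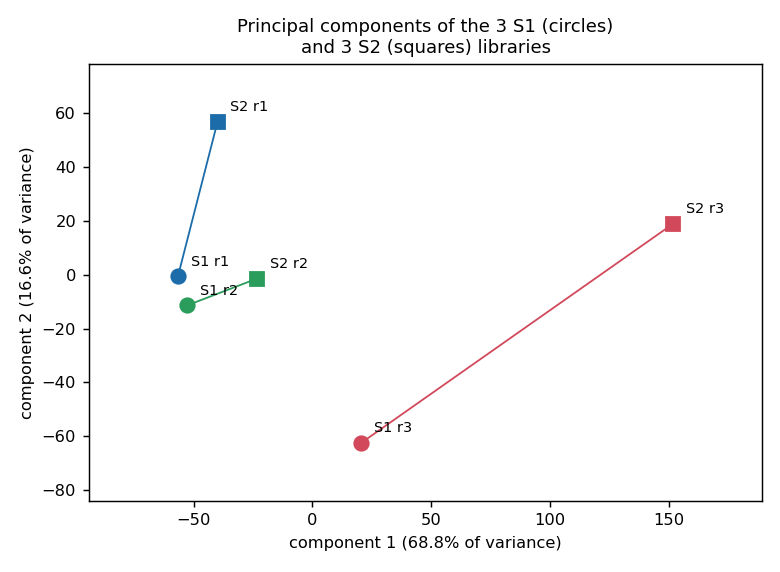
Principal components of log2 normalized counts in the 3 S1 libraries (circles) and the 3 S2 libraries (squares), in units of the component scores, with same-numbered libraries joined. Component 1 holds 68.8% of the variance and places S1 replicate 3 (20.6) to the right of S2 replicates 1 and 2 (-39.9 and -23.3).

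No gene passed an adjusted p of 0.05 between S2 and S1 (0 higher and 0 lower of 16555 tested, 0% each, by the quasi-likelihood test of edgeR with Benjamini-Hochberg correction). The smallest adjusted p was 0.152. At an unadjusted p under 0.05 there were 166 genes higher in S2 (1.00% of those tested) and 501 lower (3.03%). With 1 S1 or S2 library left out these counts ran from 48 to 395 higher and from 341 to 954 lower. DESeq2 called 5 genes higher (0.0299% of 16717) and 155 lower (0.927%) at its adjusted p. In 74 of these 155 every S2 library was at or under 3 counts. The replicate number as a block left 0 adjusted calls and raised the unadjusted counts to 499 higher (3.01%) and 620 lower (3.75%). Without replicate 3 of every population, 307 genes were higher and 592 lower at an unadjusted p under 0.05, again with 0 adjusted calls.

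The higher and lower genes differed in level. Of the 501 genes with an unadjusted p that were lower in S2, 395 (78.8%) had a mean under 100 normalized counts in the higher population, against 23 of the 166 that were higher (13.9%). In 283 of the 501, every S2 library was at or under 3 counts, and in 20 of the 166 every S1 library was. Among the 10242 better measured genes, 143 were higher and 106 lower. Scaling moved this balance. Over all tested genes the log2 fold change had a median of -0.05 with TMM, -0.12 with RLE factors and -0.17 with library totals, and higher genes made up 24.9%, 15.4% and 12.4% of those with an unadjusted p under 0.05. Fold changes below are from the TMM fit and are to be read against its median of -0.05.

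**Figure D2:**
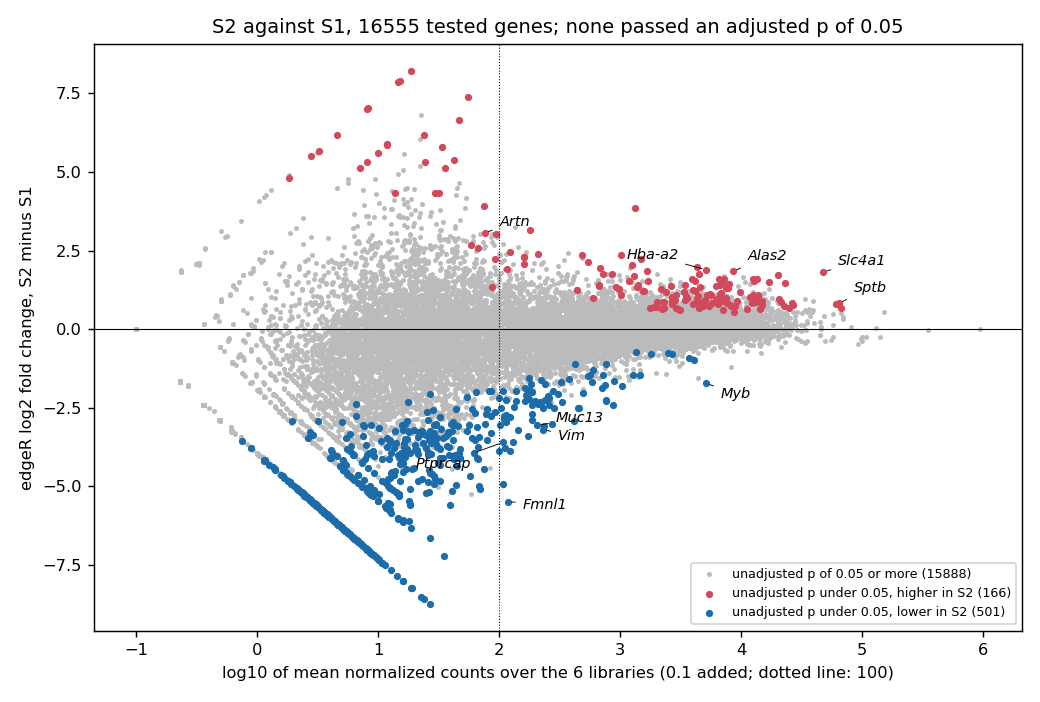
Log2 fold change of S2 minus S1 (edgeR) against the log10 of the mean normalized count over the 6 libraries, for 16555 genes. Red points (166) and blue points (501) have an unadjusted p under 0.05, and most blue points lie left of the dotted line at 100 normalized counts.

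Overlap and direction were counted as well. The 3 S2 libraries all lay above the 3 S1 libraries for 595 genes (3.59%) and all below them for 1289 (7.79%). The S2 library was higher than the same-numbered S1 library in 3 of 3 pairs for 2739 genes (16.5%) and lower for 3428 (20.7%). These shares of all genes are the background for the counts of each gene group. At an unadjusted p under 0.05 the background was 1.00% higher and 3.03% lower in the main fit, and 3.01% and 3.75% with the block. Without replicate 3 it was 307 higher and 592 lower of 17255 genes.

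The genes behind the sort were examined first. Tfrc, which encodes CD71 (GRCm38 chromosome 16, 32608896 to 32632794), had 50679, 44416 and 59504 normalized counts in S1 replicates 1 to 3 and 76862, 57354 and 110415 in S2. Each pair was higher in S2 while S1 replicate 3 lay above S2 replicate 2, and the log2 fold change was 0.66 (standard error 0.31, edgeR unadjusted p = 0.0461, adjusted p = 1). Both populations had been gated as CD71 high.

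Kit and Slc4a1 served as markers of the less and the more mature side. Kit, the receptor for stem cell factor (chromosome 5, 75574987 to 75656722), had 7595, 7269 and 4853 in S1 and 3755, 2445 and 534 in S2. All S2 libraries lay below all S1 libraries, by 1.55 on the log2 scale (standard error 0.91, edgeR unadjusted p = 0.107, adjusted p = 1). Slc4a1, which encodes the anion exchanger band 3 (chromosome 11, 102348820 to 102365281), had 9054, 9021 and 44979 in S1 and 36447, 47800 and 138933 in S2. Its log2 fold change was 1.82 (standard error 0.65, edgeR unadjusted p = 0.0124, adjusted p = 0.921), and with single libraries left out it ran from 1.01 to 3.04. Kit was lower and Slc4a1 higher in S2, the later population in the study's order, though Kit did not reach an unadjusted p under 0.05. S1 replicate 3 lay between the S2 libraries for Slc4a1. Spn, which encodes the sialoprotein CD43, was lower in S2 in each pair (4230, 4777 and 5691 against 3277, 2848 and 1576), by 0.93 on the log2 scale. Epor, the integrin gene Itga4 and the adhesion gene Cd44 had log2 fold changes of 0.25, 0.24 and -0.51 with standard errors of 0.52, 0.46 and 0.79.

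**Figure D3:**
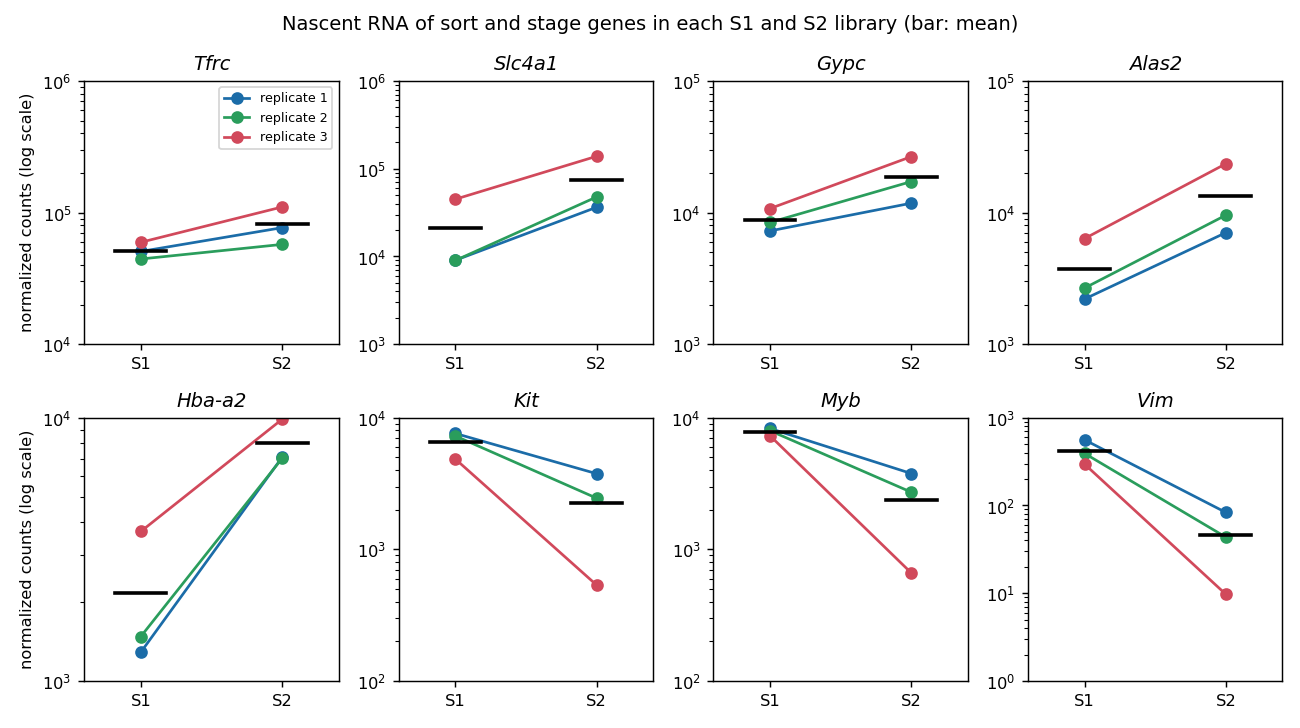
Normalized counts (log axis) of 8 genes in each S1 and S2 library, with lines joining same-numbered libraries and black bars at the means of 3. Every line for Tfrc, Slc4a1, Gypc, Alas2 and Hba-a2 goes up and every line for Kit, Myb and Vim goes down, while replicate 3 of S1 (44979 for Slc4a1) lies above replicate 1 of S2 (36447) for Slc4a1.

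The genes that build the red cell lay above the rest of the table, though none passed the adjusted test. Over 6 lists of such genes (globins, heme synthesis, iron handling, membrane, enzymes and transporters, and erythroid transcription factors), 97 of 100 listed genes were found in the table and 96 passed the filter on low counts. At an unadjusted p under 0.05, 26 were higher (27.1%, against 1.00% of all genes) and 0 were lower. All S2 libraries lay above all S1 libraries for 18 of the 96 (18.8%, against 3.59%), and 75 were higher in 3 of 3 pairs (78.1%, against 16.5%). With the block the unadjusted count was 52 (against 3.01% of all genes), and without replicate 3 it was 46 (against 307 of 17255 genes), each with 0 lower. The median log2 fold change was 0.64, and 0.46 with library totals.

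Globin genes had the largest median of these lists. Of 10 listed, 7 were in the table, and 6 of the 7 were higher in every pair, with a median log2 fold change of 1.47. Without replicate 3 the median was 2.09, and the medians of the single pairs were 1.97, 2.21 and 0.99. At an unadjusted p under 0.05, 3 of the 7 were higher and 0 lower, 5 with the block and 6 without replicate 3. Hba-a2, an adult alpha-globin gene (chromosome 11, 32296492 to 32297310), had 1285, 1474 and 3696 normalized counts in S1 and 7075, 7012 and 9870 in S2. The populations did not overlap, and the ratio of means was 3.71 (log2 fold change 1.89, standard error 0.65, edgeR unadjusted p = 0.0101, adjusted p = 0.85). Hbb-b2, a beta-globin gene, had 3073, 2569 and 5474 in S1 and 8896, 8544 and 14100 in S2, with a log2 fold change of 1.5. It was 1 of the 6 genes that passed in a fit of the 6 libraries alone with the replicate block (adjusted p = 0.0497, over alternatives 0.0497 to 1). Hbb-b1, another beta-globin gene, went from 4086, 5251 and 17522 to 15291, 24377 and 34850. Adult globin copies share sequence, and the counting may divide reads between them, so the value of each is uncertain. Of the embryonic globins, Hbb-y had 3.84, 3.93 and 49.5 in S1 and 127, 37.0 and 180 in S2, Hbb-bh1 a log2 fold change of 1.00 and Hba-x one of -0.28, with standard errors of 1.20, 1.42 and 1.38.

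Each of the 9 enzymes of heme synthesis was higher in S2 in 3 of 3 pairs, with a median log2 fold change of 0.80. Alas2, the erythroid enzyme of the first and rate-limiting step (chromosome X, 150547417 to 150570622), had 2205, 2671 and 6349 normalized counts in S1 and 7045, 9568 and 23524 in S2. It did not overlap, and its log2 fold change of 1.84 (standard error 0.46) had an edgeR unadjusted p of 0.000987 and an adjusted p of 0.576. With the block the adjusted p was 0.0747 over the 15 libraries and 0.0381 over the 6, within a range of 0.00171 to 1 over all alternatives. Fech, which inserts the iron, went from 11310, 12120 and 21468 to 18305, 21480 and 42454, and Ppox, which makes protoporphyrin, from 2298, 3399 and 6975 to 4681, 8098 and 15188. Cpox, an enzyme that acts before Ppox, was 32072, 31423 and 32124 in S1 and 39001, 38229 and 49395 in S2, a log2 fold change of 0.41 with a standard error of 0.29. Alas1, the housekeeping counterpart of Alas2, had a log2 fold change of 0.19. At an unadjusted p under 0.05, 3 of the 9 were higher, 7 with the block and 7 without replicate 3.

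The promoters of red cell genes were searched for AGATAA and TGATAA, forms of the GATA motif that differ in their first letter, in the 250 bases before the gene start on both strands (RefSeq, GRCm38.p6). Of the 100 genes on the 6 lists, 73 had an entry, and 23 of these (31.5%) held a match, against 17.0% of 27025 genes. For stem and progenitor genes it was 1 of 18 (5.56%). A match is a run of letters and does not show that a factor binds. The promoters below are of the 4 red cell genes that held a match, had an unadjusted p under 0.05 and did not overlap between S1 and S2. They are Alas2 (chrX:150547167-150547416, + strand), Hba-a2 (chr11:32296242-32296491, + strand), Mpp1, a membrane-associated guanylate kinase homologue (chrX:75131017-75131266, - strand), and Rhag, the Rh-associated glycoprotein (chr17:40810899-40811148, + strand). Each is printed 5′ to 3′ on the gene's strand with the match in capitals, which begins at base -86, -186, -147 and -31 from the start. TTATCT is AGATAA and TTATCA is TGATAA read on the other strand.
Alas2: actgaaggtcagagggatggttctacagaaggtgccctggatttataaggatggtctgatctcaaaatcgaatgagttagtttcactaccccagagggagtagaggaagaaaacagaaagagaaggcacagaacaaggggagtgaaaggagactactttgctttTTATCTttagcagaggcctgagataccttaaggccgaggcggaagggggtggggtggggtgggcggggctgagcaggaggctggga
Hba-a2: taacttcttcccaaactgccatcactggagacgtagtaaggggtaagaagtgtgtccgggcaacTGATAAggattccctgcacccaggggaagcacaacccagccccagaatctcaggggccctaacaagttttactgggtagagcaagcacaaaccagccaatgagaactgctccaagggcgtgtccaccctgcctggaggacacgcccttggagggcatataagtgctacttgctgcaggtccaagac
Mpp1: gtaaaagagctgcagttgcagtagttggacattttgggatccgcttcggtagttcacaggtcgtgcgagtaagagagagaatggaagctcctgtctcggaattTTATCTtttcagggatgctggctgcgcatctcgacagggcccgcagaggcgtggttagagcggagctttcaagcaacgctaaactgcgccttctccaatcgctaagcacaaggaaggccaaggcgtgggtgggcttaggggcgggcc
Rhag: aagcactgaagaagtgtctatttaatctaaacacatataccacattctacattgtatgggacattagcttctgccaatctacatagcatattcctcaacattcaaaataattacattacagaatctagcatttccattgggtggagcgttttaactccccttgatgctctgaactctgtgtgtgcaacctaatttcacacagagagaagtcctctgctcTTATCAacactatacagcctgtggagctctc

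Of 23 genes of iron handling, 13 were higher in every pair and 1 was lower (median log2 fold change 0.39). Slc25a37, the mitoferrin that carries iron into the mitochondrion (chromosome 14, 69241848 to 69285544), had 7045, 6955 and 22581 normalized counts in S1 and 16904, 20270 and 64373 in S2. Its log2 fold change was 1.47 (standard error 0.52, edgeR unadjusted p = 0.0121, adjusted p = 0.921). Ftl1, the ferritin light chain, did not overlap, with 7741, 7503 and 4889 in S1 and 12524, 12322 and 8452 in S2. For Ftl1 replicate 3 was the lowest library of each population, whereas for Slc25a37 it was the highest. With Tfrc these made 3 of 23 at an unadjusted p under 0.05, and 6 with the block and 6 without replicate 3. The heme exporter gene Flvcr1 and the heme-degrading enzyme gene Hmox1 had negative log2 fold changes of -0.52 and -1.41, with unadjusted p of 0.424 and 0.351 by edgeR.

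On the red cell membrane list, 11 of its 22 genes were higher and 0 lower at an unadjusted p under 0.05, 21 were higher in every pair, and 6 did not overlap, with a median log2 fold change of 0.81. At that unadjusted p, 19 were higher with the block and 10 without replicate 3. Gypc, the glycophorin C gene, had 7260, 8425 and 10737 normalized counts in S1 and 11799, 17223 and 26651 in S2 (log2 fold change 1.08, standard error 0.30, edgeR unadjusted p = 0.0028, adjusted p = 0.59). Sptb, the erythroid beta-spectrin gene (chromosome 12, 76580488 to 76710547), had 46134, 40110 and 52316 in S1 and 73645, 68434 and 104925 in S2, without overlap. Its ratio of means was 1.78 (log2 fold change 0.83, standard error 0.28, unadjusted p = 0.00971).

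The other parts of the skeleton lay in the same range. Add2, beta-adducin, went from 19818, 20105 and 17327 to 28005, 29123 and 33710, and Epb41, protein 4.1R, from 21850, 17334 and 20570 to 29018, 25570 and 47346. Dmtn, dematin, went from 3084, 3135 and 12307 to 7236, 11862 and 37178, a log2 fold change of 1.60. Mpp1 and Rhag, whose promoters are shown above, had log2 fold changes of 0.69 (standard error 0.29) and 0.65 (0.29). Aqp1, the water channel, was the member with a negative value (-0.02, standard error 1.39), and its level was set by replicate 3 in both populations (715, 670 and 11206 against 1012, 863 and 10583). S1 replicate 3 lay above S2 replicate 1 for 15 of the 22 genes and above S2 replicate 2 for 13, as it did for 60 and 61 of the 96 red cell genes.

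Among enzymes and transporters of the red cell, 11 of 16 genes were higher in every pair (median log2 fold change 0.56), and 4 were higher at an unadjusted p under 0.05, 8 with the block and 9 without replicate 3. Slc2a1, the glucose transporter GLUT1, was even in S1, with 3102, 3209 and 3515, and had 5015, 6458 and 18210 in S2 (log2 fold change 1.59, standard error 0.47, edgeR unadjusted p = 0.00356, adjusted p = 0.659). Cat, catalase, had 7394, 7687 and 5989 in S1 and 9357, 10993 and 10810 in S2 without overlap. Blvrb, a flavin and biliverdin reductase, and Slc6a9, a glycine transporter, had log2 fold changes of 1.03 and 1.41. Car2, carbonic anhydrase 2, had 0.55 with a standard error of 0.63 and Car1 had -0.70 with 0.60.

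Of 20 erythroid transcription factors listed, 19 were tested, and 15 were higher and 1 lower in every pair, with a median log2 fold change of 0.48. E2f2, a cell cycle factor (chromosome 4, 136172274 to 136196057), had 4315, 4134 and 11852 normalized counts in S1 and 9462, 11464 and 40092 in S2, a log2 fold change of 1.59 (standard error 0.52, edgeR unadjusted p = 0.0081, adjusted p = 0.831). Sox6, a repressor of embryonic globin, had 8100, 4003 and 15997 in S1 and 15590, 12526 and 64181 in S2. Klf1, the factor that drives adult globin and membrane genes, had 7316, 8925 and 19678 in S1 and 12303, 16091 and 18084 in S2. It was higher in 2 of 3 pairs, and its log2 fold change of 0.37 had a standard error of 0.50. At an unadjusted p under 0.05, 2 of 19 were higher, 7 with the block and 8 without replicate 3.

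**Figure D4:**
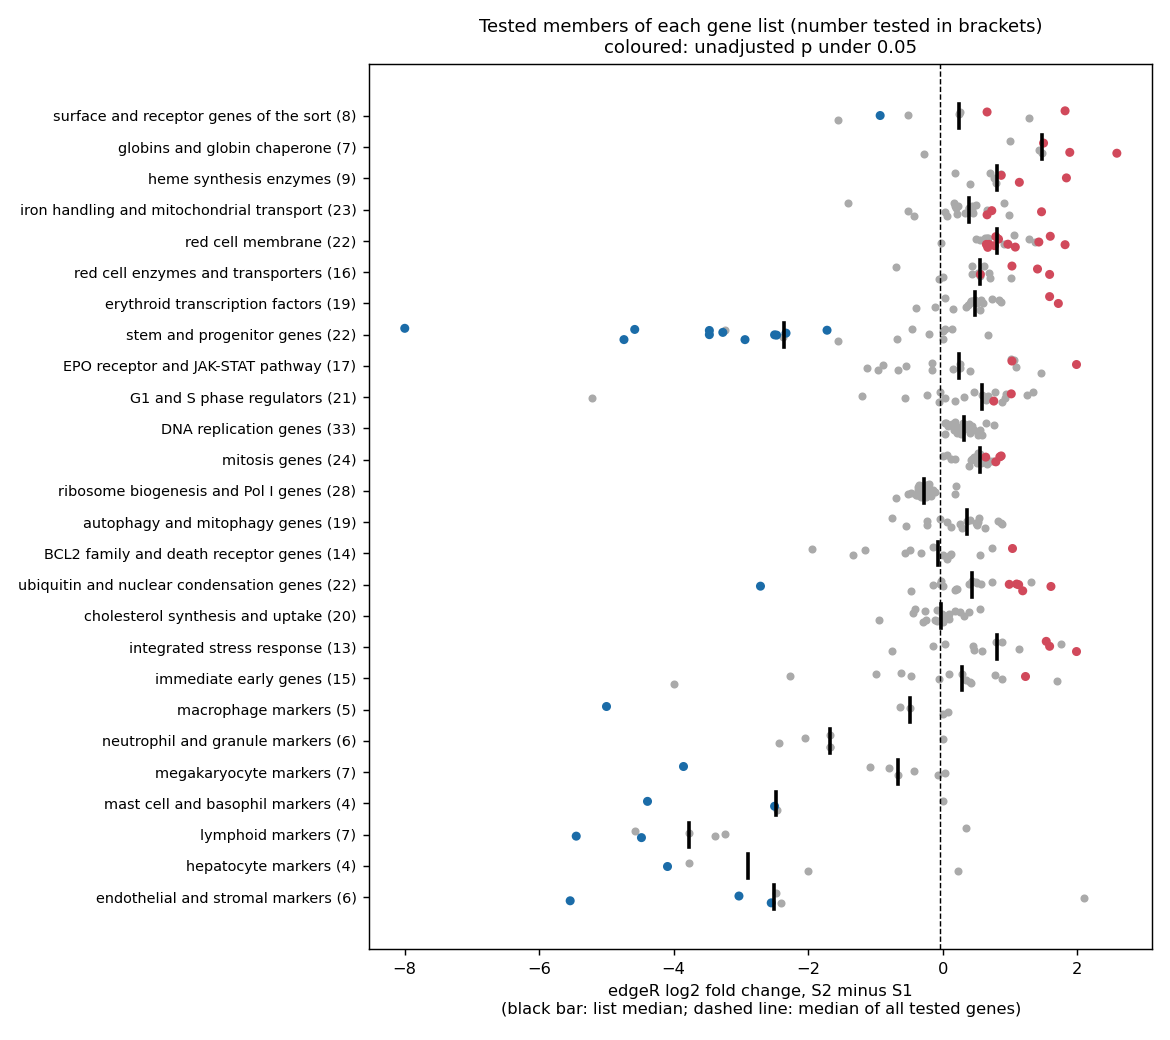
Log2 fold change of S2 minus S1 (edgeR) of each tested member of 26 gene lists, with the list median as a black bar and the median of all tested genes as a dashed line. Red and blue points have an unadjusted p under 0.05, and the red cell lists lie to the right of the dashed line, with medians from 0.39 to 1.47, while of the 22 stem and progenitor genes (median -2.36) 9 were at or under 3 counts in each S2 library.

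Genes of stem and progenitor cells were followed next, and none passed the adjusted edgeR test. Of 22 listed and tested, 11 were lower and 0 higher at an unadjusted p under 0.05 (against 3.03% of all genes), and 11 did not overlap. In 9 of the 22 each S2 library was at or under 3 counts, so these could hardly be higher in S2, and nothing is read from the direction of the list as a whole. The median log2 fold change was -2.36, and -1.42 over the 20 genes other than Cd27 and Hoxa9, which had 0 counts in all 6 libraries, with those at or under 3 counts in all S2 libraries set to the bound that 3 counts give. With the block 12 were lower and 1 higher, without replicate 3 it was 9 lower, and DESeq2 called 3 lower at its adjusted p. Myb, a factor of proliferating progenitors (chromosome 10, 21124930 to 21160984), had 8289, 7975 and 7305 normalized counts in S1 and 3768, 2717 and 661 in S2. The S1 libraries differed by less than the gap to S2, and the log2 fold change was -1.72 (standard error 0.47, edgeR unadjusted p = 0.00213, adjusted p = 0.576).

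Several other progenitor genes were at low levels in S1 already. Ptprc, which encodes CD45, had 27.7, 20.5 and 23.3 in S1 and 0, 0 and 2.77 in S2, at or under 3 counts in each S2 library, and was at least 6.86-fold lower. Cd93 had 20.8, 8.66 and 66.7 in S1 and 0 in each S2 library. Mycn had 16.1, 25.2 and 112 in S1 and 0, 0 and 6.93 in S2. Gata2, which precedes Gata1 in the erythroid lineage, had 397, 510 and 257 in S1 and 101, 87.7 and 15.2 in S2, a log2 fold change of -2.50 with a standard error of 1.09. Bcl11a, a repressor of embryonic globin genes, had 24076, 16576 and 14885 in S1 and 18461, 17297 and 21374 in S2 and a log2 fold change of 0.04 (standard error 0.50) whose sign turned with RLE factors (-0.04). Lyl1 was higher in 3 of 3 pairs, with a log2 fold change of 0.67 and an unadjusted p of 0.123 by edgeR.

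Among all genes, those with the largest differences were named by 1 rule: an unadjusted p under 0.05, no overlap of the libraries, the same direction in 3 pairs, a higher mean that reached 100 normalized counts and more than 3 counts in every library. The rule was met by 69 genes higher in S2 and 65 lower. The 10 largest negative differences were in Ptprcap, Ccdc88b, Kcng2, Vim, Dock10, Muc13, 2900026A02Rik, Aff3, Trib2 and Angpt1, with log2 fold changes from -3.60 to -2.76. Ptprcap, a protein that associates with CD45 (chromosome 19, 4154646 to 4156710), had 234, 227 and 132 in S1 and 14.1, 28.2 and 5.54 in S2, a log2 fold change of -3.60 (standard error 0.69) with an edgeR unadjusted p of 0.000142 and an adjusted p of 0.467. DESeq2 gave an adjusted p of 4.72e-06, the lowest over the alternatives, whose highest was 1.

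Vim, the intermediate filament vimentin (chromosome 2, 13574311 to 13582826), had 560, 392 and 296 in S1 and 83.2, 43.5 and 9.7 in S2, and Dock10, an exchange factor for small GTPases, had 575, 384 and 307 in S1 and 81.9, 41 and 26.3 in S2. Muc13, a membrane mucin (chromosome 16, 33794037 to 33819929), had 214, 474 and 421 in S1 and 53.8 and 65.2 in S2 replicates 1 and 2, with 9 counts left in S2 replicate 3. For Vim and Dock10 replicate 3 was the lowest library of each population, as for Kit. Angpt1, a ligand of the receptor TIE2, had 222, 74.0 and 150 in S1 and 47.4, 10.5 and 8.32 in S2. The smallest p of all genes was that of Fmnl1, a leukocyte formin named after its values were seen, with 211, 199 and 285 in S1 and 0, 12.1 and 1.39 in S2 (log2 fold change -5.48, edgeR unadjusted p = 9.95e-06, adjusted p = 0.152, over alternatives 1.9e-10 to 1).

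Most markers of other cell types were at low levels in both populations. Of 74 markers on 7 lists, 39 passed the filter, which takes in all populations. At an unadjusted p under 0.05 by edgeR, 10 were lower (against 3.03% of all genes) and 0 higher (against 1.00%). With the block 9 were lower (against 3.75%), and without replicate 3 it was 11 (against 592 of 17255 genes). In 23 of the 39 each library of S1 or of S2 was at or under 3 counts. This limits the direction that these can show, and nothing is read from the direction of the 39. The summed level of 12 macrophage markers was 85.9 to 103 normalized counts in S1 and 41.6 to 117 in S2, mostly from Cd68, with C1qa, C1qb, C1qc, Timd4 and Vcam1 at 0 in S2. That of 12 neutrophil markers was 27.3 to 54.6 and 0 to 21.7, with Elane, S100a8 and S100a9 at 0 in S2, and that of 12 lymphoid markers 36.2 to 105 and 19.2 to 87.3, with Lck the highest and Cd3e, Cd79b and Rag1 at 0 in S2. That of 10 hepatocyte markers was 46.5 to 110 and 4.83 to 35.9, with Alb at 20.8, 0.787 and 1.01 in S1. In S1, 3 macrophage, 2 neutrophil and 3 lymphoid markers were at 0. At or under 3 counts in all 6 libraries were 7, 9 and 3 of these markers.

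Gata2 is on this marker panel and on the progenitor list alike. The 10 mast cell and basophil markers summed to 264 to 534 in S1 and 15.2 to 102 in S2, nearly all from Gata2, with Cpa3 and 7 others at 0 in S2. Of the 10, 6 were at 0 in S1, and 7 were at or under 3 counts in all 6 libraries. The 8 endothelial and stromal markers summed to 112 to 376 and 3.84 to 65.2, among them Tek at 24.6, 36.2 and 99.1 in S1 and 1.28, 8.05 and 9.70 in S2, and Pecam1 at 76.9, 99.2 and 128 in S1 and 0, 46.7 and 2.77 in S2. The 10 megakaryocyte markers summed to 1380 to 3989 and 1360 to 3331, mostly from Vwf (683, 502 and 2733 against 572, 827 and 2632), while Pf4 had 11.5, 9.44 and 29.3 in S1 and no more than 3 counts in any S2 library. In bulk libraries, fewer cells of a type and less RNA per cell cannot be told apart, and the part of such cells in the genes lower in S2 was not tested.

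The 10 largest positive differences were in Gm12977, Artn, 4930455G09Rik, Gm15774, Parp12, Gm867, Gm15938, Hba-a2, Alas2 and Tent5c, with log2 fold changes from 3.93 to 1.76. Most of them were predicted transcripts or genes at low levels. Gm12977 had 6.92, 6.30 and 14.2 in S1 and 64.0, 33.8 and 324 in S2. Artn, the neurotrophic ligand artemin (chromosome 4, 117925908 to 117930795), had 13.1, 14.2 and 21.2 in S1 and 60.2, 63.6 and 284 in S2, and a mean of 3369 in S3. Tent5c, listed as Fam46c, a poly(A) polymerase (chromosome 3, 100468057 to 100489192), was tight in S1, with 1794, 2090 and 2199, and had 4200, 4080 and 12319 in S2 (log2 fold change 1.76, standard error 0.45, edgeR unadjusted p = 0.00124, adjusted p = 0.576). Gm867 had 99.9, 151 and 349 in S1 and 493, 706 and 1419 in S2.

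In the fit of the 6 libraries with the replicate block, 6 genes passed and were higher in S2: Alas2, Btg2, Butr1, Hbb-b2, Trim10 and Ypel4. Butr1 and Ypel4 were named after their values were seen. Of the others, Btg2, an antiproliferative gene, had 835, 1169 and 8177 normalized counts in S1 and 2567, 4783 and 25634 in S2, with each pair higher while S1 replicate 3 lay above S2 replicates 1 and 2. For Ypel4 it lay above S2 replicate 1, with 188, 281 and 1101 in S1 and 793, 1210 and 5352 in S2. The adjusted p was 0.0381 for both and ran to 1 over the alternatives. With single libraries left out the log2 fold change of Btg2 ran from 0.12 to 3.45.

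Genes of the cell cycle lay a little above the median of all genes. Over 3 lists (regulators of G1 and S phase, DNA replication, mitosis), 78 of 81 listed genes were tested, 6 were higher and 0 lower at an unadjusted p under 0.05 (7.69%, against 1.00%; 15 with the block, and 8 higher and 1 lower without replicate 3), and 56 were higher in every pair (71.8%, against 16.5%). The median log2 fold change was 0.41 (0.25 with library totals). The 33 tested DNA replication genes had a median of 0.32 (0.16 with library totals), 25 were higher in every pair, and 0 of 33 had an unadjusted p under 0.05 by edgeR (1 with the block, 1 without replicate 3, 0 adjusted calls by DESeq2). Rrm2, a subunit of ribonucleotide reductase, had 16843, 17474 and 25448 in S1 and 23346, 28841 and 49635 in S2. Ccna2, cyclin A2, did not overlap (9092, 9936 and 13990 against 14568, 15976 and 25388), and E2f8, a repressing E2F, had a log2 fold change of 1.02.

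Mitosis genes had a median of 0.56, with 4 of 24 higher at an unadjusted p under 0.05, 9 with the block and 3 without replicate 3. Tpx2, a spindle assembly factor, had 10767, 11160 and 11573 in S1 and 13961, 16900 and 21211 in S2, and Kif23, a motor of cytokinesis, had 2927, 3391 and 3558 in S1 and 4699, 4785 and 7590 in S2. Aurka and Prc1, a mitotic kinase and a crosslinker of spindle microtubules, had log2 fold changes of 0.85 and 0.87. Mki67, the proliferation antigen, had 98651, 125356 and 147417 in S1 and 139000, 139055 and 265679 in S2, a log2 fold change of 0.55 with a standard error of 0.43.

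Ribosome biogenesis genes lay on the other side. Of 28, 26 had a negative log2 fold change and 18 were lower in every pair (against 20.7% of all genes), with a median of -0.28. By edgeR 0 of 28 had an unadjusted p under 0.05 (1 lower with the block, 1 lower without replicate 3, 0 adjusted calls by DESeq2). The median differed between pairs, at -0.11, -0.27 and -0.99 for replicates 1, 2 and 3. Ncl, the nucleolar protein nucleolin, had 144381, 145163 and 28672 in S1 and 125904, 83530 and 20322 in S2. S1 replicate 3 lay below S2 replicates 1 and 2 for Ncl and for each of the other genes of the list (above them for 0 of 28).

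Genes of ubiquitin conjugation and nuclear condensation, which remodel the late erythroblast, had a median log2 fold change of 0.44. At an unadjusted p under 0.05, 5 of 22 were higher and 1 lower (against 1.00% and 3.03% of all genes). The counts were 8 and 1 with the block (against 3.01% and 3.75%), and 5 and 1 without replicate 3. Ube2o, a ubiquitin ligase that clears ribosomal proteins, had 3726, 3443 and 2805 in S1 and 5401, 5977 and 9969 in S2. Xpo7, a nuclear exporter, had 3653, 3572 and 3071 in S1 and 5604, 4502 and 12493 in S2, and was 1.13 higher on the log2 scale but 0.48 without replicate 3. Trim10, an erythroid RING finger protein, had 1656, 2175 and 6712 in S1 and 5143, 6777 and 20315 in S2. Diap2, a formin, was lower, with 651, 272 and 48.5 in S1 and 69.1, 76.4 and 1.39 in S2. Usp15, a deubiquitinase, had a log2 fold change of 0.20.

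Signalling genes were examined next. Of 17 genes of the erythropoietin receptor and JAK-STAT pathway, 2 were higher and 0 lower at an unadjusted p under 0.05 (against 1.00% and 3.03% of all genes), 4 were higher with the block, and 5 were higher and 1 lower without replicate 3. In direction the list was mixed, with 7 members higher and 5 lower in every pair and a median log2 fold change of 0.25 (0.05 with library totals). Bcl2l1, the survival gene for BCL-XL, did not overlap, with 1901, 1478 and 1931 in S1 and 3142, 2584 and 5153 in S2 (log2 fold change 1.03, standard error 0.38, edgeR unadjusted p = 0.0163). Pim1, a kinase induced by STAT5, went from 9279, 14591 and 4254 to 17111, 28236 and 14515. Stat5a was lower in each pair (log2 fold change -0.89, standard error 0.56). Of 14 tested BCL2 family and death receptor genes, Bcl2l1 had an unadjusted p under 0.05 (1 of 14, 2 with the block and 1 without replicate 3), and Mcl1, with 7818, 8854 and 9544 in S1 and 7518, 9761 and 9087 in S2, had a log2 fold change of 0.01 (standard error 0.27).

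Of 13 genes of the integrated stress response, 3 were higher and 0 lower at an unadjusted p under 0.05 (against 1.00% and 3.03% of all genes). With the block 5 were higher (against 3.01%), and without replicate 3 it was 5 (against 307 of 17255 genes). The median log2 fold change was 0.80, or 0.38 without replicate 3, and the medians of the single pairs were 0.31, 0.87 and 0.97. Trib3, a pseudokinase, had 1412, 962 and 2769 in S1 and 2108, 2329 and 16013 in S2, Ddit3, which encodes CHOP, had 1085, 1352 and 3398 in S1 and 2032, 2762 and 12714 in S2, and Sesn2 had a log2 fold change of 1.54. Atf4, the factor that acts above these genes, had 21550, 22967 and 16006 in S1 and 25018, 33143 and 25638 in S2. Among 15 tested immediate early genes, with 1 under 0.05 (3 with the block and 3 without replicate 3), Dusp1, a phosphatase gene, had an unadjusted p of 0.0443 by edgeR (559, 608 and 1620 against 872, 1359 and 4262). Autophagy genes had a median of 0.36 with 0 of 19 under an unadjusted p of 0.05 by edgeR (4 with the block, 3 without replicate 3, 0 adjusted calls by DESeq2), and Atg16l1, which serves autophagosome formation, had 0.07. Cholesterol synthesis and uptake had a median of -0.02 with 0 of 20 under 0.05 (0 with the block, 0 without replicate 3, 0 adjusted calls by DESeq2).

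The step from S1 to S2 was set beside the steps before and after it, which share the S1 or the S2 libraries with it. The median size of the log2 fold change over all tested genes, regardless of sign, was 0.41 for S1 minus S0-Medium, 0.43 for S2 minus S1 and 1.05 for S3 minus S2. The median for globins was 2.00, 1.47 and 2.84 at the 3 steps, for the red cell membrane 1.06, 0.81 and 1.73 and for heme synthesis 1.15, 0.80 and 1.54. For red cell enzymes and transporters it was 0.88, 0.56 and 1.46, for erythroid transcription factors 0.27, 0.48 and 1.03, and for iron handling 0.37, 0.39 and 0.44. Ribosome biogenesis genes had 0.03, -0.28 and -1.81. Without replicate 3 of every population the S2 minus S1 median was 2.09 for globins and 0.67 for the membrane. For heme synthesis it was then 1.01, and for enzymes and transporters 0.63. Medians of the steps before and after are not given without replicate 3, and differences between list medians were not tested. Stem and progenitor genes are not set side by side here, since so many were at or under 3 counts.

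**Figure D5:**
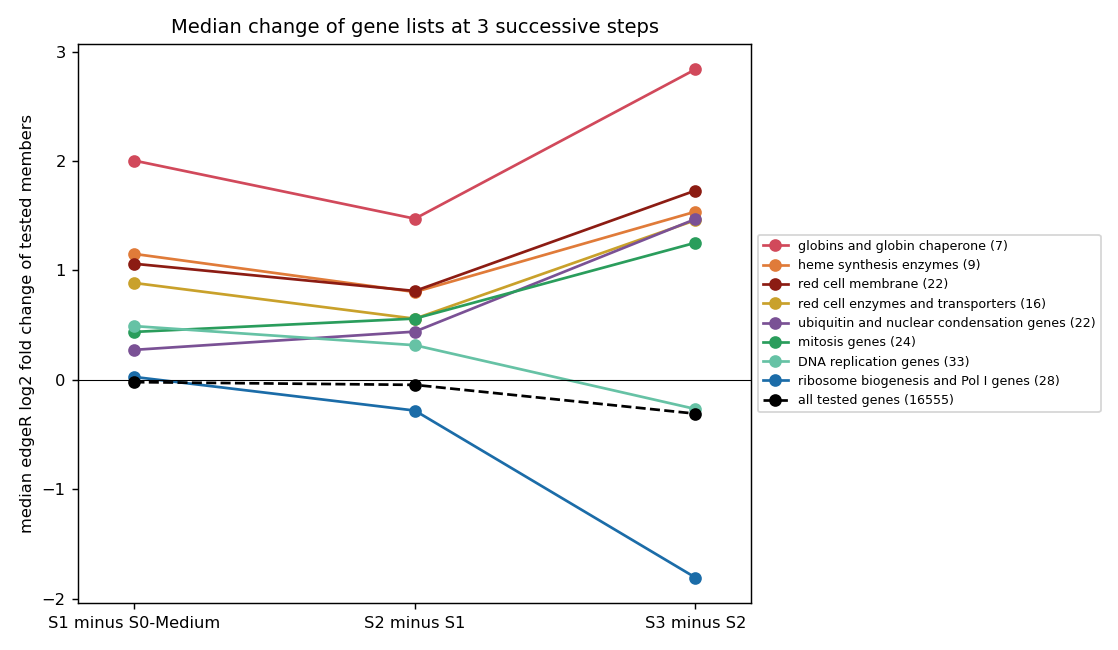
Median edgeR log2 fold change of the tested members of 8 gene lists, and of all tested genes (dashed), at 3 successive steps that share libraries. With replicate 3 included, globin, membrane, heme and enzyme lists have their smallest median at S2 minus S1 (1.47, 0.81, 0.80 and 0.56). Without replicate 3 these S2 minus S1 medians were 2.09, 0.67, 1.01 and 0.63. Differences between the steps in list medians were not tested. Ribosome biogenesis genes reach -1.81 only at S3 minus S2.

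Whether the step differs from its neighbours was tested in the same model. Against the step before it, 0 genes differed (0% of 16555; edgeR's quasi-likelihood test, Benjamini-Hochberg adjusted p under 0.05), with 64 and 60 genes at an unadjusted p under 0.05 in each direction, and DESeq2 also called 0. Against the step after it, 26 genes differed (0.157%), and at an unadjusted p under 0.05 there were 317 genes with a more positive change at the later step and 1093 with a more negative one. All 26 were lower in S3 than in S2 and had a more negative change from S2 to S3 than from S1 to S2, in 26 of 26 also with library totals. With the block all 26 were called, and 25 without replicate 3 of every population, in fits that called 91 and 276 genes, and DESeq2 called 342. When 1 S1 or S2 library was left out the count was 5 to 7, except without S2 replicate 3, where it was 87. No S3 library was left out in turn. In 21 of them each S3 library was at or under 3 counts, and the fall from S2 to S3 was at least 16.6-fold to at least 244-fold. The mean in S1 was 0.874 to 2.92 times that in S2, with a median of 1.57.

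Of the 26, 5 genes still had counts above 3 in an S3 library, and were named for that after their values were seen. Stat5a, the transcription factor that acts below the erythropoietin receptor, had 2407, 2150 and 2143 normalized counts in S1, 1694, 1222 and 703 in S2 and 0, 32.9 and 19.2 in S3, a difference between the steps of -5.15 on the log2 scale (standard error 0.95, edgeR adjusted p = 0.0427). Kif13a, a kinesin, had 2578, 2109 and 2363 in S1, 1729, 1510 and 1142 in S2 and 73.4, 118 and 164 in S3 (-2.93, standard error 0.55). Scarb2, a lysosomal membrane protein, had 1147, 1055 and 1451, then 850, 838 and 1182, then 39, 11 and 48.8 (-4.52, standard error 0.81). Ptpn9, a phosphatase, had 748, 746 and 296, then 716, 522 and 457, then 0, 9.58 and 1.74. It was above 3 counts in 1 S3 library, so the fitted difference of -6.96 depends on how the fit treats low counts. That of Prr12 was -3.03. For these 5 genes all S3 libraries lay below all S1 and S2 libraries.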

How the data were processed

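Nascent RNA was measured in 18 libraries, of which the 3 S1 and 3 S2 libraries are compared. Per the labels and the study's methods, the authors purified 4sU-labelled RNA, made stranded libraries with 14 cycles of PCR and no molecular identifiers, and deposited a table of counts per Ensembl gene made with kallisto 0.43.0 against GRCm38 (per the submitters' processing notes). Near-identical copies share counts in such a table. The study's own tests used DESeq2. The deposited counts were used as they stand.

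Of 54232 genes, 16555 passed filterByExpr by population, and 14494 of these had a symbol. The 15 erythroid libraries (5 populations of 3) were fitted with edgeR 4.0.16 in R 4.3.3, with TMM factors, population as the only term and the two-sided quasi-likelihood test. P-values were Benjamini-Hochberg adjusted over all tested genes, with a threshold of 0.05. The common biological coefficient of variation was 0.795. Fits were checked on simulated counts, with a level per gene shared by all populations and no replicate pairs. The adjusted p was passed by 0 of 66 genes changed 2-fold, 10 of 65 changed 4-fold and 31 of 64 changed 16-fold. A lack of adjusted calls therefore does not show a lack of change. Total counts per library limit precision to a floor of 3 counts. An exact permutation test of 3 against 3 libraries cannot go below 0.1, so none is given for single genes.

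S1 and S2 share replicate numbers. Over 16555 genes the deviations from the population means correlated at 0.217, 0.273 and 0.332 between same-numbered libraries. Between different numbers the values were -0.278 to 0.122, and the pairs counted here follow the numbers. The main fit has population as its only term, so its standard errors and p-values do not use the pairs. The study's text calls the replicates biological, and the sources used here do not say what a number stands for. The replicate block was an alternative fit, beside DESeq2 1.42.0, RLE factors, library totals, other filters, other sets of libraries and single libraries left out. The fits without replicate 3 were chosen after seeing the data.

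Genes were named by a rule: the sort genes and markers, the 10 largest differences each way under the conditions given with them, and in each list the members with an unadjusted p under 0.05, at most the 4 with the smallest p, and the member with the highest mean. Alas1, Aqp1, Car1, Cd44, Dmtn, Elane, Epb41, Epor, Flvcr1, Fmnl1, Hba-x, Hbb-bh1, Hmox1, Itga4, Klf1, Lyl1, Mpp1, Rhag, Butr1, Ypel4, the genes named at 0 and the 5 genes of the step difference were named after their values were seen. Some genes that the rule names are not reported here. The members and gene lists were chosen with earlier results of these data known. Promoters and gene positions are from RefSeq, GRCm38.p6.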

Additional observations from a re-analysis of the deposited data

Results flagged for a closer look

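The change from S2 to S3 differed from the change from S1 to S2 in 26 genes (edgeR's quasi-likelihood test of the contrast, Benjamini-Hochberg adjusted p under 0.05), and this difference between the steps was itself tested. Stat5a differed by -5.15 on the log2 scale, Kif13a by -2.93, Scarb2 by -4.52, Ptpn9 by -6.96 and Prr12 by -3.03. These 5 were above 3 counts in at least 1 S3 library, Ptpn9 in 1 of 3, so that its fitted value depends on how low counts are treated, while the other 21 were at or under 3 counts in each S3 library. No sample was tested as an outlier, since groups of 3 are too small.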

How the results depend on the processing

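At an adjusted p under 0.05, genes higher in S2 numbered 0 by edgeR but 5 by DESeq2, 17 with no filter and 6 in the 6 libraries with the replicate block, and genes lower in S2 numbered 155 by DESeq2, 60 with no filter and 2 with all 18 libraries. At an unadjusted p, genes higher in S2 numbered 101 with RLE factors, 81 with library totals, 437 with no filter, 99 with at least 10 counts in each library, 499 with the replicate block, 929 in the 6 libraries with the block, 307 without replicate 3 and 509 without it and with the block. Genes lower numbered 798 by DESeq2, 863 with no filter, 56 with at least 10 counts, 266 in the 6 libraries and 761 there with the block. With the block over the 15 libraries the adjusted counts stayed at 0, and the lower unadjusted count was 620 against 501.

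Genes whose change differed at the next step numbered 342 by DESeq2, 64 with library totals, 247 with no filter, 64 with at least 10 counts, 91 with the block, 87 with all 18 libraries, 276 without replicate 3 and 563 without it and with the block, and at the previous step 3 with no filter. The 6 libraries alone cannot give a difference between steps. With single S1 or S2 libraries left out (no other library was left out), adjusted counts ran from 0 to 0 higher and 0 to 2 lower, unadjusted counts from 48 to 395 higher and 341 to 954 lower, and step differences from 5 to 87 at the next step and 0 to 0 at the previous one. The lowest count of higher genes (48) was without S2 replicate 3, and the highest (395) without S1 replicate 3. The step count was 5 without S1 replicate 1 or S2 replicate 1, 6 without S1 replicate 2, 7 without S1 replicate 3 or S2 replicate 2, and 87 without S2 replicate 3. Leaving out a library leaves fewer samples, and the cause of the other shifts was not tested.

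The sign of 46 gene values turned, in the 8 genes below, while 1528 kept direction and side of the threshold and 37 passed it. Bcl11a was -0.04 by DESeq2 and with RLE factors, -0.09 with totals, -0.01 with at least 10 counts, -0.19 without replicate 3 and -0.14 with the block too, and -0.10 to 0.25 with 1 library left out. Atg16l1 was -0.01 by DESeq2 and RLE factors, -0.07 with totals, -0.04 without replicate 3 with or without the block, and -0.02 to 0.18 with 1 library left out. Mcl1 was -0.07 by DESeq2 and RLE factors, -0.13 with totals, -0.02 with no filter, -0.04 with at least 10 counts, -0.00 in the 6 libraries, -0.01 there with the block, and -0.10 to 0.11 with 1 library left out. Usp15 was -0.06 without replicate 3 with or without the block and -0.09 to 0.33 with 1 library left out, and Ccnd3 was -0.08 to 2.06 so. Cd68 was -0.00 by DESeq2 and RLE factors, -0.01 with totals, -0.04 with the block, -0.02 with it in the 6 libraries and -0.32 to 0.38 with 1 library left out. Vwf was -0.06 by DESeq2 and RLE factors, -0.18 with totals, -0.02 with at least 10 counts and -0.90 to 1.18 with 1 library left out, and Lck was -0.17 to 1.92 so. Of the list medians recomputed, 393 moved by less than the spread between pairs and 97 by more, 15 of 26 without S2 replicate 3 and 14 of 26 without S1 replicate 3. A library's floor of 3 counts limits what can be said of genes near 0 in S2.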
